A study of Homo sapiens with 4 samples.

Results

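The genes described here are the core of the ATF4 arm of the integrated stress response: ATF4, ATF3, ATF5, DDIT3, DDIT4, TRIB3, CHAC1, ASNS, SESN2 and PPP1R15A. They were chosen by name, with no measured value in the rule but with earlier results of these data known. All 10 were among the 23622 genes listed in the RNA-seq table of MV4-11 cells. MV4-11 is a human acute myeloid leukaemia line of monocytic type that carries a KMT2A rearrangement and an internal tandem duplication of FLT3. The comparison was between 2 sh-NC control libraries and 2 libraries of cells with knockdown of IRF1, a transcription factor of the interferon response, and asked what loss of IRF1 did to the transcriptome. Both groups were the same wild-type line, with no drug under study. Per the study's methods the hairpins were carried by a pLKO.1 lentivirus and infected cells were selected with puromycin, whereas the labels list the control as untreated. The labels do not say which of the study's hairpins each sh-IRF1 library received, or whether replicates were separate cultures, so p-values measure only the spread between these samples.

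In the integrated stress response, kinases that sense haem shortage, double-stranded RNA, misfolded protein in the endoplasmic reticulum (ER) or uncharged tRNA phosphorylate the translation factor eIF2. General translation then slows, while the ATF4 mRNA, whose upstream reading frames normally hold back its coding frame, is translated more. ATF4 switches on genes for amino acid supply, tRNA charging and redox balance, and genes that damp the response again. Since ATF4 is set largely by translation, its mRNA level does not give its protein level, and neither protein nor eIF2 phosphorylation was measured in these libraries. In leukaemic cells this pathway is known for its part in amino acid supply and in survival under stress.

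ATF4 pairs with C/EBP factors on composite elements whose core reads TGATGNAA. This core, searched on both strands in RefSeq promoter windows (GRCh38.p14, from 250 bases before to 50 bases after each start site), was held by 3.62% of all 35116 windows. Among the 10 genes, all of which matched a window, it was held by CHAC1, ASNS and ATF3, on the gene's own strand at positions -68 in ASNS and -191 in ATF3 and on the other strand at position -209 in CHAC1. ASNS and ATF3 each had 2 windows, of which 1 held it. An interferon-regulatory-factor type motif, 2 GAAA blocks set 2 bases apart, was held by 3.57% of windows and 4.38% of gene symbols. Of the 10 genes ATF5 alone held it, in 1 of its 3 windows, at the overlapping positions -91 and -85 and again at position 8 past the start. The cyclic-AMP response element TGACGTCA, held by 1.85% of windows and 2.25% of gene symbols, lay at position -58 of PPP1R15A, the member that moved against the rest. DDIT4, the member with the largest fall, held none of these motifs in its window. The 250 bases before the start site are printed for these 6 genes in the direction of the gene, with motif letters in capitals. Where a gene had several windows, the one with the match is printed. A letter match describes the sequence only and is not evidence of binding.
CHAC1, chr15:40953221-40953470, plus strand: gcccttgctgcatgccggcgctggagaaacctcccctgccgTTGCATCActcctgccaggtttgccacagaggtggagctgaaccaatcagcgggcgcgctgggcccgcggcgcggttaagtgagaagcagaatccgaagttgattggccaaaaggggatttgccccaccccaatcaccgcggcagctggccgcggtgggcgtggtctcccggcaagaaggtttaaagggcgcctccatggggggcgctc
ASNS, chr7:97872409-97872658, minus strand: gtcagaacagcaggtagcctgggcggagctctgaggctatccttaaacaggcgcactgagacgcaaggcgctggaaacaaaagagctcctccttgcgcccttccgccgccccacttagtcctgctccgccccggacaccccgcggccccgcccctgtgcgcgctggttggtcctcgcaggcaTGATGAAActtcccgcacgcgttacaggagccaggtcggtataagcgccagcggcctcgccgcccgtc
ATF3, chr1:212565157-212565406, plus strand: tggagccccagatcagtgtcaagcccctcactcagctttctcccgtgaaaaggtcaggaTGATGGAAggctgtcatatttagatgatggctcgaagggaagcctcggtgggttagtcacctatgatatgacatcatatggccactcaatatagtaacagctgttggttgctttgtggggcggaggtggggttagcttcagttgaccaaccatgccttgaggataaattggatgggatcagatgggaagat
ATF5, chr19:49928656-49928905, plus strand: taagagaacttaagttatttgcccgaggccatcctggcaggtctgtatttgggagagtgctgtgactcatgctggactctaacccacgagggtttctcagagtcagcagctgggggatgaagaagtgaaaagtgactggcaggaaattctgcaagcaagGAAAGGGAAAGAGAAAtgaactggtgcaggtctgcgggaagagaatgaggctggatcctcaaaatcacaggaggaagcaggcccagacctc
PPP1R15A, chr19:48872171-48872420, plus strand: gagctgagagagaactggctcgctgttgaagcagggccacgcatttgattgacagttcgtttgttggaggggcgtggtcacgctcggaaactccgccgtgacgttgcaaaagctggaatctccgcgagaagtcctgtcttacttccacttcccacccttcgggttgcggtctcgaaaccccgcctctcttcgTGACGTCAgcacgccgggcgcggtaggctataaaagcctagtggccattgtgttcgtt
DDIT4, chr10:72273674-72273923, plus strand: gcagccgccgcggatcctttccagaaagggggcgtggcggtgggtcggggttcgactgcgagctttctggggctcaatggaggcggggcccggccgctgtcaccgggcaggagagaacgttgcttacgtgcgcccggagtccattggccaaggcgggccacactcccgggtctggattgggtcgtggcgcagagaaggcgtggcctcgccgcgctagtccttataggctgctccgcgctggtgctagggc

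IRF1 itself was read at normalized counts, meaning reads divided by 1 size factor per library, of 785 and 738 in the sh-NC libraries and of 429.7 and 432 in the sh-IRF1 libraries. The groups did not overlap, and the sh-IRF1 mean was 56.6% of the control mean (log2 fold change -0.82, SE 0.0904, limma adjusted p = 1.69e-10), with 22.9% of its exonic bases also in other genes. The libraries held between 17635908 and 18695337 reads. Of the 10 myeloid and MV4-11 markers all were listed, and they summed to between 43802 and 44147 in the controls and between 39995 and 40293 after knockdown. Single myeloid markers moved apart, with FLT3 at 72.9%, MPO at 37.3% and LYZ at 180% of control, log2 fold changes of -0.46, -1.42 and 0.85. PTPRC and CSF1R were also lower, at -0.48 and -0.19, and SPI1 was higher at 0.17. CD33, HOXA9, MEIS1 and CD4 were not called, at 0.03, -0.07, -0.11 and 0.01. Of 5 erythroid and megakaryocytic markers none was listed, and of 5 T and NK cell markers 2 were, summing to 1063 and 1084 against 1003 and 968, with CD3D, CD3E and CD2 not listed. Of 4 B cell markers 3 were listed and their sum was higher after knockdown, at 254 and 305 against 88.2 and 120.2, with MS4A1 not listed, and the 3 listed of 6 epithelial, fibroblast and kidney markers summed to 345 and 258 against 397 and 362. The part of these markers in the results was not tested.

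Of the 10 stress response genes, 9 were lower and 1 was higher after IRF1 knockdown. A call here is an adjusted p under 0.05 in limma over all 14120 genes that reached a normalized count of 10 in at least 2 libraries, and all 10 genes passed that filter. Across all genes tested 21.9% were called lower, 20.3% higher and 42.2% in either direction, so 9 of 10 lower stood against a background of about 1 gene in 5. Their log2 fold changes had a median of -0.55, against -0.0019 for all genes tested. In the same 9 genes both sh-IRF1 libraries lay below both sh-NC libraries, which held for 35.0% of all genes tested, and in the remaining gene, PPP1R15A, both lay above, which held for 34.2%. With a log2 fold change beyond 0.5 also required, 8 of the 10 were lower against 7.56% of all genes, and none was higher against 8.27%. For any single gene an exact permutation test of 2 against 2 libraries, two-sided, cannot give a p below 0.333, so the calls rest on the spread shared across genes. In bulk libraries such as these, less RNA per cell and fewer expressing cells cannot be told apart.

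**Figure D1:**
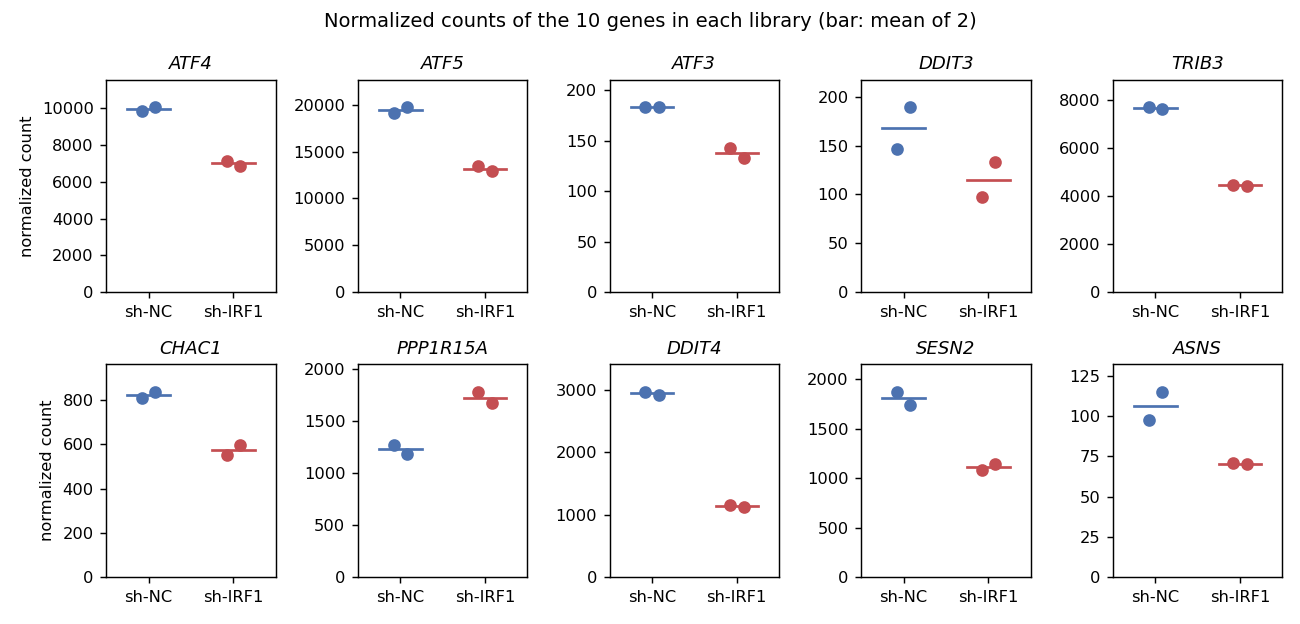
Normalized counts of the 10 stress response genes, 1 panel a gene with its own linear axis from 0, 1 point a library (sh-NC blue, sh-IRF1 red) and a bar at each group's mean. The sh-IRF1 points lie below the sh-NC points for every gene except PPP1R15A, where they lie above at 1775 and 1672 against 1269.9 and 1183.

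**Figure D2:**
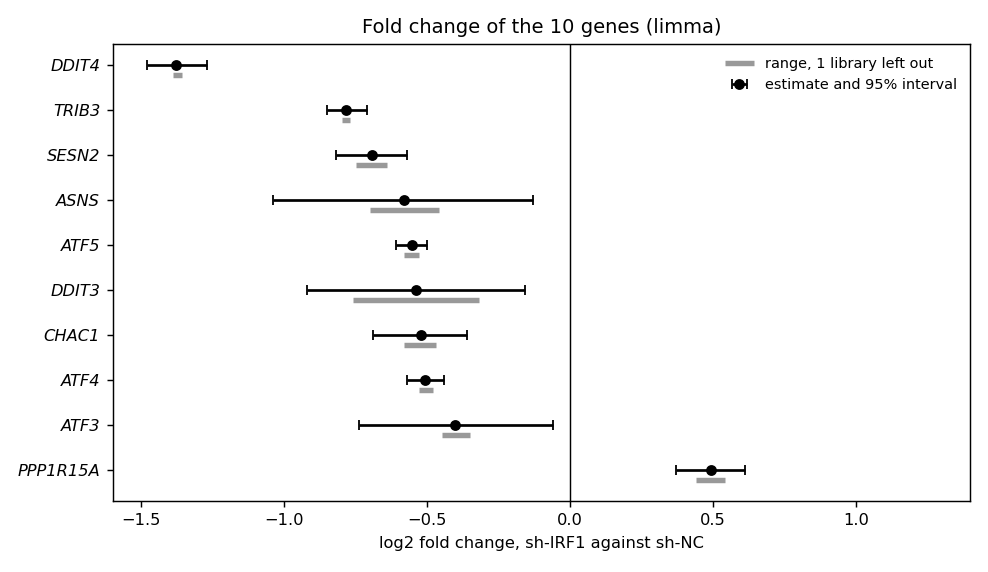
Log2 fold change of each gene, sh-IRF1 over sh-NC, with its 95% confidence interval from limma (black) and the range when 1 library is left out (grey). DDIT4 has the largest fall at -1.38, ATF3, DDIT3 and ASNS have the widest intervals, and PPP1R15A is the gene above 0 at 0.49.

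The transcription factors of the group fell together. ATF4 (ENSG00000128272, chr22:39519695-39522683, plus strand), the factor that gives the response its name, was read at 9878 and 10049 in sh-NC and at 7135 and 6889 in sh-IRF1. The groups were well apart, with means ± SD of 9964 ± 121 and 7012 ± 174 (n = 2 each), and the level fell to 70.4% of control (log2 fold change -0.51, 95% confidence interval -0.57 to -0.44, limma adjusted p = 2.88e-18). Its 2 pseudogenes in the table held 0.127% as many reads as ATF4 itself. ATF5 (ENSG00000169136, chr19:49928702-49933935, plus strand), a relative of ATF4 that is also controlled by upstream reading frames, had the highest level of the 10 per kilobase of exon, averaging 6699.7 in the controls and 4560 after knockdown. Its normalized counts were 19053 and 19698 in sh-NC against 13434 and 12941 in sh-IRF1, a fall to 68.1% of control (log2 fold change -0.56, interval -0.61 to -0.50, limma adjusted p = 4.28e-22). Of its exonic bases 22.1% also belong to other genes, among them NUP62 and IL4I1 on the opposite strand, and whether the counting used strand is not given in the sources used here.

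ATF3 (ENSG00000162772, chr1:212565334-212620777, plus strand), an early-induced factor that acts largely as a repressor, was much scarcer. It was read at 183 in both sh-NC libraries and at 143 and 133 in sh-IRF1, 75.6% of control. The groups did not overlap, but the call was marginal (log2 fold change -0.40, interval -0.74 to -0.06, limma adjusted p = 0.0497). It was kept in 5 of 15 alternatives and lost whenever any 1 library was left out, where the log2 fold change ran from -0.45 to -0.35 and the adjusted p reached 0.206. DDIT3 (ENSG00000175197, chr12:57516588-57521737, minus strand) encodes CHOP, which takes the response towards cell death when stress lasts. It was read at 146 and 189 in sh-NC and at 97.5 and 133 in sh-IRF1, 68.9% of control, with the higher sh-IRF1 library close to the lower sh-NC one (log2 fold change -0.54, interval -0.92 to -0.16, limma adjusted p = 0.0189). Without sh-NC replicate 2 the log2 fold change was -0.35 (limma adjusted p = 0.229) and without sh-IRF1 replicate 1 it was -0.32 (limma adjusted p = 0.304). Of the exonic bases of DDIT3 39.6% also belong to other genes, among them MARS1 and MBD6 on the opposite strand, and MARS1 is itself on the list of tRNA synthetases given further on.

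**Figure D3:**
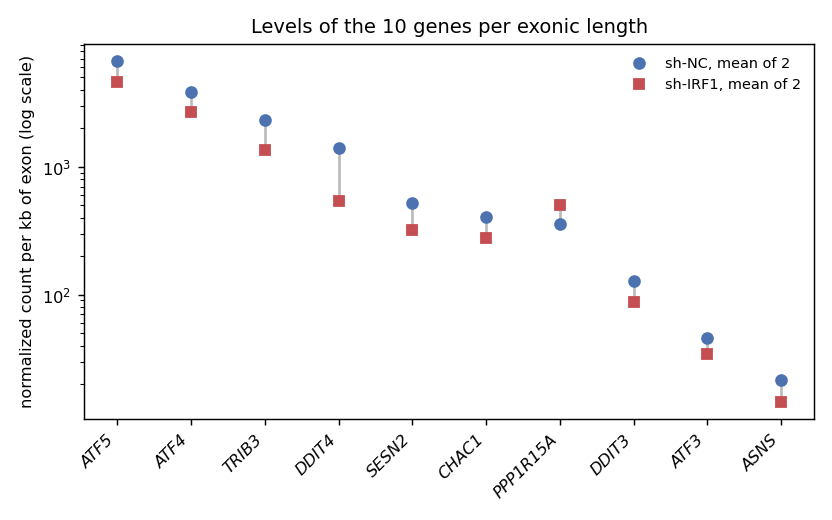
Mean normalized count per kilobase of exon (log axis) of the 10 genes in sh-NC and sh-IRF1 libraries. Levels run from 21.7 for ASNS to 6699.7 for ATF5 in sh-NC, so the 10 genes span a wide range.

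The feedback genes split. TRIB3 (ENSG00000101255, chr20:362835-397559, plus strand), a pseudokinase that ATF4 and CHOP induce and that restrains them in turn, was read at 7705 and 7626 in sh-NC and at 4489 and 4417 in sh-IRF1. The replicates lay close together and the level fell to 58.1% of control (log2 fold change -0.78, interval -0.85 to -0.71, limma adjusted p = 9.82e-24). CHAC1 (ENSG00000128965, chr15:40952962-40956512, plus strand) degrades glutathione and lies downstream of ATF4, ATF3 and CHOP. It was read at 811 and 837 in sh-NC and at 551 and 596 in sh-IRF1, 69.6% of control (log2 fold change -0.52, interval -0.69 to -0.36, limma adjusted p = 9.2e-07). Its window held TGATGCAA on the other strand, so the capitals printed above for CHAC1 are its reverse complement.

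PPP1R15A (ENSG00000087074, chr19:48872212-48876059, plus strand) encodes GADD34, the inducible subunit that brings protein phosphatase 1 to eIF2 and so ends the response. It was read at 1269.9 and 1183 in sh-NC and at 1775 and 1672 in sh-IRF1, and both sh-IRF1 libraries were above both controls. The level was 141% of control (log2 fold change 0.49, interval 0.37 to 0.61, limma adjusted p = 2.35e-09) and ran from 0.44 to 0.54 when 1 library was left out. Its constitutive counterpart PPP1R15B went from 3494 and 3334 to 2889.6 and 2931, 85.2% of control (log2 fold change -0.23, limma adjusted p = 1.92e-05). Of the catalytic subunits of protein phosphatase 1, PPP1CC fell from 5156 and 5033 to 2063 and 1975, 39.6% of control (log2 fold change -1.33, SE 0.0429, limma adjusted p = 3.48e-29). PPP1CB was lower by much less (log2 fold change -0.28, limma adjusted p = 2.97e-07), and PPP1CA had a log2 fold change of -0.05 with an interval of -0.13 to 0.02 (limma adjusted p = 0.269). The subunits of the eIF2 phosphatases thus moved in both directions at the mRNA level.

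DDIT4 and SESN2 both encode stress-induced inhibitors of mTORC1, the kinase complex that drives growth when amino acids are plentiful, and both fell. DDIT4 (ENSG00000168209, chr10:72273919-72276036, plus strand), also called REDD1, was read at 2962 and 2922 in sh-NC and at 1148 and 1119.7 in sh-IRF1. This was the largest fall among the 10 genes, to 38.5% of control (log2 fold change -1.38, SE 0.0528, interval -1.48 to -1.27, limma adjusted p = 3.48e-26), and it ran from -1.39 to -1.36 when 1 library was left out. SESN2 (ENSG00000130766, chr1:28259518-28282491, plus strand), the leucine-binding sestrin 2, was read at 1870 and 1744 in sh-NC and at 1085 and 1146 in sh-IRF1, 61.7% of control (log2 fold change -0.70, interval -0.82 to -0.57, limma adjusted p = 1.51e-13).

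ASNS (ENSG00000070669, chr7:97851677-97872542, minus strand), asparagine synthetase, is the textbook amino acid target of ATF4, and 1 of its 2 windows held TGATGAAA on its own strand. It was read at only 97.5 and 115 in sh-NC and at 70.6 and 70.3 in sh-IRF1, from 71 to 112 reads a library. The groups did not overlap and the level was 66.3% of control (log2 fold change -0.58, interval -1.04 to -0.13, limma adjusted p = 0.0343). The call was kept in 10 of 15 alternatives, and of the 4 fits with 1 library left out it was kept in 1. Without sh-NC replicate 2 the adjusted p was 0.204 in limma, without sh-IRF1 replicate 1 it was 0.113 and without sh-IRF1 replicate 2 it was 0.121. Of the exonic bases of ASNS 49.3% are shared with ENSG00000284707, a gene on the same strand that was listed separately with 44 and 43 control reads and 38 and 81 reads after knockdown, so the level of ASNS depends on how reads in shared exons were counted.

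The rest of the pathway was read from 7 lists of related genes, of which 107 of 108 genes were in the table and 106 were tested. Of these, 63 were lower, 18 were higher and 25 were not called, with a median log2 fold change of -0.24. The shares were 59.4% lower and 17.0% higher, against 21.9% and 20.3% of all genes tested, so only the lower share exceeded the background. The lists did not share 1 pattern, and the most even were the tRNA synthetases.

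**Figure D4:**
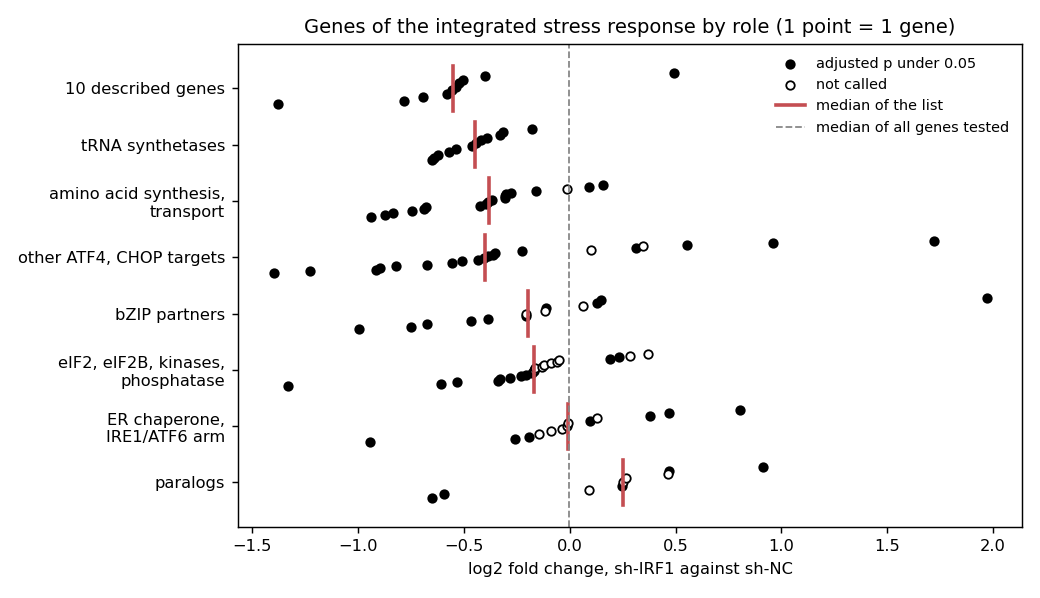
Log2 fold change of every tested gene in the 10 stress response genes and in each of the 7 related lists, 1 point a gene (filled where the adjusted p is under 0.05, open where not called), with the list's median as a red bar and that of all genes tested as a dashed line. All 12 tRNA synthetases lie below 0, with a median of -0.45, whereas the ER chaperone and IRE1/ATF6 list is centred at -0.01.

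Upstream of ATF4, the 4 eIF2 kinases differed. EIF2AK1 (HRI), the kinase that senses haem shortage and relays mitochondrial stress, fell from 3505 and 3554 to 2338 and 2297, 65.7% of control (log2 fold change -0.61, SE 0.0442, limma adjusted p = 5.37e-16). The others were not called. EIF2AK2 (PKR), the sensor of double-stranded RNA and itself an interferon-induced gene, was read at 543 and 581 in sh-NC and at 518 and 513 in sh-IRF1 (log2 fold change -0.12, interval -0.31 to 0.06, limma adjusted p = 0.30). EIF2AK4 (GCN2), the sensor of uncharged tRNA, was read at 1575 and 1774 against 1557 and 1583 (log2 fold change -0.09, interval -0.21 to 0.03, limma adjusted p = 0.218), and without sh-NC replicate 1 it was called lower at -0.18 (limma adjusted p = 0.0238), while without sh-NC replicate 2 it was at -0.0 (limma adjusted p = 0.968). EIF2AK3 (PERK), the sensor in the ER membrane, was read at 286 and 238 against 323 and 314 (log2 fold change 0.29, interval 0.03 to 0.54, limma adjusted p = 0.0695), and without sh-NC replicate 1 it was called higher at 0.42 (limma adjusted p = 0.0216), while without sh-NC replicate 2 it was at 0.15 (limma adjusted p = 0.441).

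The whole list held 21 genes, the kinases, their regulators and the subunits of eIF2, eIF2B and the phosphatases. Of these, 10 genes were lower, 2 were higher and 9 were not called, with a median of -0.17. The shares were 47.6% lower and 9.52% higher, against 21.9% and 20.3% of all genes tested. EIF2S2, the beta subunit of eIF2, fell from 3569 and 3541 to 2458 and 2460.5, 69.2% of control (log2 fold change -0.53, limma adjusted p = 2.48e-14). The alpha subunit EIF2S1, which the kinases phosphorylate, was lower by 0.17 on the log2 scale (limma adjusted p = 0.00315), a call lost without sh-IRF1 replicate 2 at -0.13 (limma adjusted p = 0.11). The 2 genes called higher were GCN1, an activator of GCN2 (5758 and 5589.6 against 6558 and 6781, 118% of control), and DNAJC3, an inhibitor of PERK and PKR (1938 and 2005 against 2276 and 2217, 114% of control), with limma adjusted p of 2.57e-07 and 0.00185.

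ATF4 works as a dimer with other leucine zipper (bZIP) proteins. Of 13 such partners 7 were lower, 3 were higher and 3 were not called, with a median of -0.20. The shares were 53.8% lower and 23.1% higher, against 21.9% and 20.3% of all genes tested, so the higher share was near the background. CEBPB, a partner on the composite element, fell from 3012 and 3093 to 1906 and 1912, 62.5% of control (log2 fold change -0.68, limma adjusted p = 1.18e-16). JDP2, a repressor of the AP-1 family, fell from 973 and 867 to 432 and 489 (log2 fold change -0.998, limma adjusted p = 2.85e-13), and FOSL2 from 2889.7 and 2730.1 to 2008 and 2051 (log2 fold change -0.47, limma adjusted p = 2.29e-11). JUN, an AP-1 subunit, went the other way, from 282 and 262 to 1053 and 1082, 393% of control (log2 fold change 1.97, SE 0.0934, limma adjusted p = 1.08e-22). JUND and NFE2L2 were also called higher, at 0.13 and 0.15, but JUND lost its call without sh-NC replicate 1 and NFE2L2, with 38.4% of its exonic bases also in other genes, kept it in 1 of the 4 fits that left out a library.

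The amino acid genes moved mostly with ATF4. Of 18 genes of amino acid synthesis and transport, listed as ATF4 targets, 15 were lower, 2 were higher and 1 was not called, with a median of -0.38. The shares were 83.3% lower and 11.1% higher, against 21.9% and 20.3% of all genes tested. PSAT1, an enzyme of serine synthesis, fell from 14802 and 14983 to 8126 and 8131, 54.6% of control (log2 fold change -0.87, limma adjusted p = 1.3e-28). ALDH1L2, a mitochondrial enzyme of folate metabolism, fell from 4136 and 4244 to 2123 and 2253, 52.2% of control (log2 fold change -0.94, limma adjusted p = 9.25e-23), and SLC38A2, which carries neutral amino acids into the cell, from 8463 and 8186 to 4584 and 4735, 56% of control (log2 fold change -0.84, limma adjusted p = 7.57e-25). The exceptions were transporters. SLC7A11, the cystine importer, was higher at 0.15 (limma adjusted p = 0.0139) and SLC7A1, which carries arginine and lysine, at 0.09 (limma adjusted p = 0.00551). Without sh-IRF1 replicate 1 neither was called (limma adjusted p = 0.17 and 0.0925), and without sh-IRF1 replicate 2 SLC7A1 was not (limma adjusted p = 0.0546). SLC1A4 was not called at -0.01, and its sign turned when libraries were scaled to total reads.

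All 12 cytosolic aminoacyl-tRNA synthetases listed as ATF4 targets, which charge tRNAs with their amino acids, were lower, against 21.9% of all genes tested. Their log2 fold changes ran from -0.65 to -0.18 with a median of -0.45. WARS1, which is also induced by interferon, fell from 8778 and 9046 to 5682 and 5666, 63.7% of control (log2 fold change -0.65, limma adjusted p = 1.33e-21). TARS1 fell from 11807 and 11860.1 to 7764 and 7586, 64.9% of control (log2 fold change -0.62, limma adjusted p = 2.48e-22), and GARS1 from 9301 and 9371 to 6365 and 6218, 67.4% of control (log2 fold change -0.57, limma adjusted p = 7.25e-20).

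The synthetases were also the list with the most TGATGNAA matches. They were listed as targets of ATF4, so a share of its core above that of all genes was built into the choice. Of the 10 matched to a promoter window 7 held TGATGNAA, 70% against 4.46% of all 27305 gene symbols. For comparison it was held by 3 of the 10 stress response genes, by 4 of 12 amino acid genes, by 2 of 15 other ATF4 and CHOP targets, by 2 of 10 bZIP partners, by 1 of 18 genes of the eIF2 list, by 0 of 13 genes of the ER list and by 0 of 8 paralogs. The matches are shown in the direction of the motif, with 10 bases on each side and the core in capitals, to show how the bases around the core compare between the 7.
AARS1, chr16:70289676-70289703: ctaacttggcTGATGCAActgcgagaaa
CARS1, chr11:3057408-3057435: tcctagaatcTGATGCAAccgccgcccc
GARS1, chr7:30594835-30594862: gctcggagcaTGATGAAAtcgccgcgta
IARS1, chr9:92293693-92293720: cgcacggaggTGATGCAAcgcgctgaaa
MARS1, chr12:57488054-57488081: aatccctcgcTGATGCAAccggaaccgg
NARS1, chr18:57621805-57621832: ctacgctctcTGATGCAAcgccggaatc
TARS1, chr5:33440957-33440984: ctggaccagcTGATGCAAtcgaaaggcg
The core read TGATGCAA in 6 of the 7 and TGATGAAA in GARS1. WARS1, the synthetase with the largest fall, held the interferon-regulatory-factor type motif in 1 of its 2 windows and no TGATGNAA in either. That motif was held by 1 of the 10 synthetases and 1 of the 10 stress response genes, against 4.38% of all gene symbols. It was also held by 1 of 18 genes of the eIF2 list, EIF2AK2, which was not called. Among 15 other ATF4 and CHOP targets 1 held it, BBC3, which was lower. Whether the motif bears on the falls was not tested.

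Of 20 other ATF4 and CHOP targets tested 14 were lower, 4 were higher and 2 were not called. Their median was -0.40, with a range from -1.40 to 1.72. The shares were 70% lower and 20% higher, against 21.9% and 20.3% of all genes tested, so the higher share was near the background. VEGFA, a growth factor for blood vessels, fell from 2989 and 3042 to 1628 and 1571, 53% of control (log2 fold change -0.91, limma adjusted p = 1.16e-20). VLDLR, a lipoprotein receptor, fell from 3068 and 3111 to 1746 and 1751, 56.6% of control (log2 fold change -0.82, limma adjusted p = 1.89e-19), and HSPA9, the mitochondrial HSP70, from 12481 and 12712 to 8909 and 8765, 70.2% of control (log2 fold change -0.51, limma adjusted p = 1.42e-19). Genes that rose included SQSTM1, the autophagy receptor p62, from 2139.8 and 2005 to 4105 and 3963, 195% of control (log2 fold change 0.96, limma adjusted p = 8.7e-23). HMOX1, the haem-degrading enzyme, rose from 80 and 51.4 to 217 and 211 (log2 fold change 1.72, SE 0.205, limma adjusted p = 1.28e-09), and BCL2L11, which encodes the pro-apoptotic BIM, from 1074 and 946 to 1562 and 1399.8, 147% of control (log2 fold change 0.55, limma adjusted p = 2.83e-09). Of the exonic bases of SQSTM1 22.4% also belong to other genes. SQSTM1 and HMOX1 are also known targets of NFE2L2 (NRF2). NUPR1 and NIBAN1 were not called, at 0.35 and 0.10.

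The other arms of the ER stress response, run by IRE1 and ATF6, showed no common direction. Of 13 genes 4 were higher, 3 were lower and 6 were not called, shares of 30.8% and 23.1% against the background of 20.3% and 21.9%. XBP1, the factor that IRE1 activates by splicing, fell from 10403 and 10350.2 to 5407 and 5386, 52% of control (log2 fold change -0.94, limma adjusted p = 3.7e-28). HSPA5, the chaperone BiP, was lower by 0.19 on the log2 scale, from 12049 and 11919 to 10515 and 10441 (limma adjusted p = 2.45e-07), and ERN1, which encodes IRE1, by 0.26 (limma adjusted p = 0.0141). ERN1 lost its call without sh-NC replicate 1, at -0.13 (limma adjusted p = 0.332), and without sh-IRF1 replicate 1, at -0.20 (limma adjusted p = 0.188). The folding genes PDIA4 (3648 and 3557 against 5038 and 4939.7, log2 fold change 0.47), CRELD2 (400.1 and 334 against 615 and 665, log2 fold change 0.81) and SDF2L1 (662 and 559.8 against 797 and 785, log2 fold change 0.38) were higher, with limma adjusted p of 3.13e-14, 6.19e-09 and 3.03e-04.

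The genes listed as paralogs of the 10 genes did not follow them as a group. The list held ATF1, ATF2, ATF6B and ATF7, which share the ATF name but are not the closest relatives of ATF3, ATF4 or ATF5. JDP2, a relative of ATF3, and PPP1R15B were both lower and were counted on the bZIP and eIF2 lists instead. Of 9 paralogs tested 3 were higher, 2 were lower and 4 were not called, shares of 33.3% and 22.2% against 20.3% and 21.9% of all genes tested. Their median was 0.25, against -0.55 for the 10 genes. SESN3, the paralog of SESN2, went from 126 and 112 to 237 and 213, 189% of control (log2 fold change 0.91, limma adjusted p = 1.28e-05), the opposite direction to SESN2. ATF6B and ATF7 were also higher, at 0.25 and 0.47 (limma adjusted p = 1.17e-05 and 7.27e-05), and 42.8% of the exonic bases of ATF7 also belong to other genes. TRIB1, the paralog of TRIB3, fell from 719 and 651 to 402 and 472, 63.8% of control (log2 fold change -0.65, limma adjusted p = 2.19e-07), and ATF1 fell from 808 and 805 to 507 and 563 (log2 fold change -0.59, limma adjusted p = 1.23e-07). SESN1, CHAC2, ATF2 and TRIB2 were not called, with log2 fold changes of 0.46, 0.25, 0.09 and 0.26.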

How the data were processed

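Total RNA of MV4-11 cells was sequenced as 2 sh-NC and 2 sh-IRF1 libraries. Per the labels, reads were aligned with HISAT2 (2.0.5) to hg38, while the counting tool, annotation and use of strand are not given in the sources used here. The values the authors deposited are a normalized signal, reads divided by 1 size factor per library. All of them were whole multiples of a library's step within 0.01 of a read, so reads were recovered for count tests.

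limma (3.58.1, R 4.3.3; variance trend, robust shrinkage) was fitted to log2(value + 1) for the 14120 genes at 10 or more in at least 2 libraries, with Benjamini-Hochberg adjustment over all of them and calls at an adjusted p under 0.05. Fold changes are on this scale, which understates those of low genes. The alternatives included edgeR (4.0.16) and DESeq2 (1.42.0) on the recovered reads, other scalings and each library left out. Within each group the 2 libraries differed beyond counting error (chi-square over genes, divided by their number: 2.52 for the control pair, 2.37 for the knockdown pair).

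The 10 genes and the related lists were chosen with earlier results of these data known. Besides the 10 genes, IRF1 and the eIF2 kinases, the text names up to 3 genes per list and direction with the smallest p, and the paralogs. SLC1A4, NUPR1, NIBAN1, PPP1CA, PPP1CB, PPP1R15B, EIF2S1 and BBC3 fall outside this rule and were added with their values known. Symbols were matched for 23456 of 23622 identifiers. Gene positions and exons are from GENCODE 44 (GRCh38), promoter windows from RefSeq (GRCh38.p14).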

Additional observations from a re-analysis of the deposited data

How the results depend on the processing

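For the 10 genes and IRF1, 15 alternatives gave 165 values, of which 147 kept their direction and call, 18 kept their direction without the call and 0 turned. The 18 belonged to ATF3 (10), ASNS (5) and DDIT3 (3), and the other 7 genes and IRF1 were called in all 15. Lower calls among the 10 numbered 9 in limma, 8 in edgeR, 6 in DESeq2, 7 with scaling to total reads and 6 to 8 with 1 library left out. Over all genes the lower calls also changed, with 3092 in limma, 3080 in edgeR, 2605 in DESeq2 and 2645 with scaling to total reads. A log2 fold change beyond 0.5 left 1168 higher and 1067 lower of all genes, and 0 higher and 8 lower of the 10 genes. Of the related lists it left 6 higher and 28 lower. Higher and lower counts were 0 and 3 for the eIF2 list, 1 and 3 for bZIP partners, and 0 and 6 for amino acid genes. They were 0 and 5 for synthetases, 3 and 8 for other targets, 1 and 1 for the ER list, and 1 and 2 for paralogs. Scaling to total reads gave 4 higher genes on the eIF2 list. Leaving out a library leaves 1 in its group, which is then assumed to vary like the other group. With 1 library left out, higher calls ran from 2 to 4 on the eIF2 list (4 without sh-NC replicate 1), from 1 to 3 among bZIP partners (1 without sh-NC replicate 1) and from 0 to 2 among amino acid genes (SLC7A1 and SLC7A11, 0 without sh-IRF1 replicate 1 and 1 without sh-IRF1 replicate 2). SLC1A4 turned from -0.01 to 0.03 with scaling to total reads and ran from -0.05 to 0.02 with 1 library left out (0.02 without sh-IRF1 replicate 1). With the replicate number as a block, 2903 genes were higher and 3147 lower and 8 of the 10 genes were lower, ATF3 being lost (limma adjusted p = 0.0559). The values showed no shared effect of the replicate number, since deviations of same-numbered libraries had a correlation of -0.0154. This cannot tell whether the libraries were prepared in pairs. ASNS, ATF3 and DDIT3 were also the 3 of the 10 genes with the lowest normalized counts, all under 200 in every library, and whether depth accounts for the lost calls was not tested.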

Other observations

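ASNS ranked lowest in level per kilobase of exon among 60 genes, the 10 stress response genes and the tested amino acid, synthetase and other target genes, with a mean of 21.7 in sh-NC against a median of 530 over the 60. About 49.3% of its exonic bases are shared with the separately listed ENSG00000284707. The part of the shared bases in this level was not tested.

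Lower calls were not limited to genes with TGATGNAA near the start site. The 10 stress response genes and the tested amino acid, synthetase and other target genes included 46 with a promoter window. Of these, the 15 that held the core had a median log2 fold change of -0.40, with 13 lower, 1 higher and 1 not called. The 31 without it had a median of -0.51, with 26 lower, 4 higher and 1 not called. Of all genes tested 21.9% were lower and 20.3% higher, and the 46 were chosen with earlier results of these data known. The largest fall and the largest rise of the 46, at -1.40 and 0.96, were both in genes without the core. These medians were not tested against each other, and windows of 300 bases leave out elements farther away.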
